A study of Mus musculus with 4 samples.

Results

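The 33 genes described here are interferon-stimulated genes, measured in sorted alveolar epithelial type 2 (AT2) cells of the mouse lung, the cells that make surfactant and renew the alveolar epithelium. The genes were chosen by name, with earlier results of these data known, and all 33 were found among the 27998 genes of the files. Counts of these genes beside all genes are therefore descriptions, not an independent check. The mice carried Sftpc-creER and Rosa26-mTmG. In these mice tamoxifen (4 doses) switches on a membrane GFP in cells that express Sftpc, so every group shares the tamoxifen treatment and the Cre driver, and only cells with Sftpc promoter activity at that time, and their descendants, carry the label. At day 14 after tamoxifen, mice aged 3 or 12 months received PBS or a single dose of bleomycin (0.8 U/kg), a drug that injures the alveolar epithelium, into the trachea. GFP+ cells negative for CD45, a leukocyte marker, and for CD31, an endothelial marker, were sorted and run on the 10x Genomics 3' kit. The 4 groups were 3-month PBS, 12-month PBS, 3-month bleomycin and 12-month bleomycin, each 1 library of cells pooled from 3 mice. PBS cells were taken at day 0 and bleomycin cells at day 30, so treatment and day cannot be told apart. Values are given in this order of groups throughout.

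Levels are counts of unique molecular identifiers (UMIs) summed over the cells of a library and given as CPM, the count per 1000000 UMIs of that library. They come from cells with 500 or more genes, at most 20% mitochondrial UMIs and Sftpc at 5% or more of UMIs, which were 2308, 2570, 2299 and 2450 of 2452, 2807, 2646 and 3006 barcodes. The 10 AT2 markers checked, which include Sftpc, were all detected in each library. So were all 6 AT1, 4 club, 5 ciliated and 4 neutrophil markers checked, so detection alone does not set the cells apart. Cells that passed the first 2 filters and had less Sftpc numbered 86, 175, 325 and 543, and are used below as a comparison inside each library. Median UMIs per kept cell were 4563.5, 5137.5, 8552 and 12520, so 1 UMI stood for 0.0918, 0.0752, 0.0480 and 0.0314 CPM. Between 7 and 20 barcodes were shared by each pair of libraries. With 1 library per group there is no replicate and no test. The 95% intervals below cover counting error only, not the difference between mice or between libraries. Those of levels and ratios also leave out the spread between cells. They are exact, except those of the difference between ages, which are Wald intervals. A gene was called higher or lower when its level differed 2-fold or more and the interval of the ratio left out 1. Fold values are ratios of levels, and log2 ratios were made after adding 0.5 counts.

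Interferons are secreted proteins that warn cells of infection or damage. Type I and type III interferons act through receptors and the kinases JAK1 and TYK2 to assemble a complex that contains STAT2 and IRF9 and binds the interferon-stimulated response element (ISRE) of its target genes. Interferon gamma, the type II interferon, acts mainly through the gamma-activated site (GAS). The target genes include the factors and sensors of the pathway itself, which can amplify it, as well as proteins that bind viral RNA, restrict viruses at membranes, or attach and remove the ubiquitin-like protein ISG15. Epithelial cells of the lung respond to all these interferons.

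The promoters are shown because the ISRE and the GAS are the sequences through which interferons act on such genes, and the 6 below carry a match to one of them before the transcription start. RefSeq promoter windows of GRCm38.p6, from 250 bases before to 50 bases after the start, matched 25 of the 33 genes by symbol. Capitals mark every match to the ISRE core, 2 copies of GAAA with NN between them, searched on both strands, or, for Irf1, to the GAS pattern TTC, NNN, GAA, which reads the same on both. Each stretch is written 5' to 3' along the strand of the gene and ends before it: Isg15 at chr4:156200819-156200978 (minus strand), Ifit1 at chr19:34640729-34640870 (plus), Ifit3 at chr19:34583369-34583528 (plus), Oas1a at chr5:120907526-120907685 (minus), Bst2 at chr8:71537473-71537632 (minus) and Irf1 at chr11:53769854-53770013 (plus).
Isg15: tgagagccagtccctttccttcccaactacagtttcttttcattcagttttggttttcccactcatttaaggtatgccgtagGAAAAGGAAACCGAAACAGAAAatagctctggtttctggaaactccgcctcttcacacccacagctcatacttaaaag
Ifit1: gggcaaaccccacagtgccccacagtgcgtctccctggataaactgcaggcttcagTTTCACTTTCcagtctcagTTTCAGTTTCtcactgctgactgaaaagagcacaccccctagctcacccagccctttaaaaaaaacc
Ifit3: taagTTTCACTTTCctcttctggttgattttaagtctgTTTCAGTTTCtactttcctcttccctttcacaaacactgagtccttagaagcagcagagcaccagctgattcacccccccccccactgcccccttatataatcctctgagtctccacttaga
Oas1a: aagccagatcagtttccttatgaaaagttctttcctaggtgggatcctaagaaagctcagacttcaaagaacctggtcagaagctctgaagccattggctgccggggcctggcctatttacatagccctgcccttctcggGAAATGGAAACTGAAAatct
Bst2: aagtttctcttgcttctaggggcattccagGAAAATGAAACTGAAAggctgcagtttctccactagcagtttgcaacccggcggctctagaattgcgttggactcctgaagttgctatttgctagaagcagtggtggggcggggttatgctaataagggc
Irf1: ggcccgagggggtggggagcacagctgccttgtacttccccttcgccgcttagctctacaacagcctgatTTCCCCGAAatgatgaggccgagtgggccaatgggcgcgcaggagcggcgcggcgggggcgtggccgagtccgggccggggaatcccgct
In Isg15 3 overlapping matches form one run between 78 and 57 bases before the start. In Oas1a and Bst2 2 matches overlap, and in Ifit1 and Ifit3 2 separate matches lie on the opposite strand. The Oas1a window also holds a GAS match, and that of Bst2 holds one that overlaps its ISRE matches.

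An ISRE core was found in a window of 12 of the 25 genes (48.0%, 29 windows, since some genes have several starts), against 3.99% of the 27025 gene symbols in the same table. The 12 genes were Stat2, Ddx58, Ifih1, Ifit1, Ifit3, Oas1a, Rsad2, Ifitm2, Ifitm3, Bst2, Isg15 and Trim30a. A GAS match was found in 6 (24.0%), namely Irf1, Ifit2, Oas1a, Ifitm3, Bst2 and Ifi35, against 9.55% of all symbols. Genes with the ISRE core had a median log2 ratio between 12-month bleomycin and PBS of 3.92, with a range from 0.94 to 7.45, and the 13 without it had 3.02, with a range from 1.13 to 6.25, so the 2 ranges overlapped over most of their length. A match is a string of letters, not a shown binding site, and windows without one say nothing of sites elsewhere. Dhx58, Zbp1, Mx1, Usp18, Parp14, Ifi27, Ifi27l2a and Rtp4 had no window in the table.

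**Figure D1:**
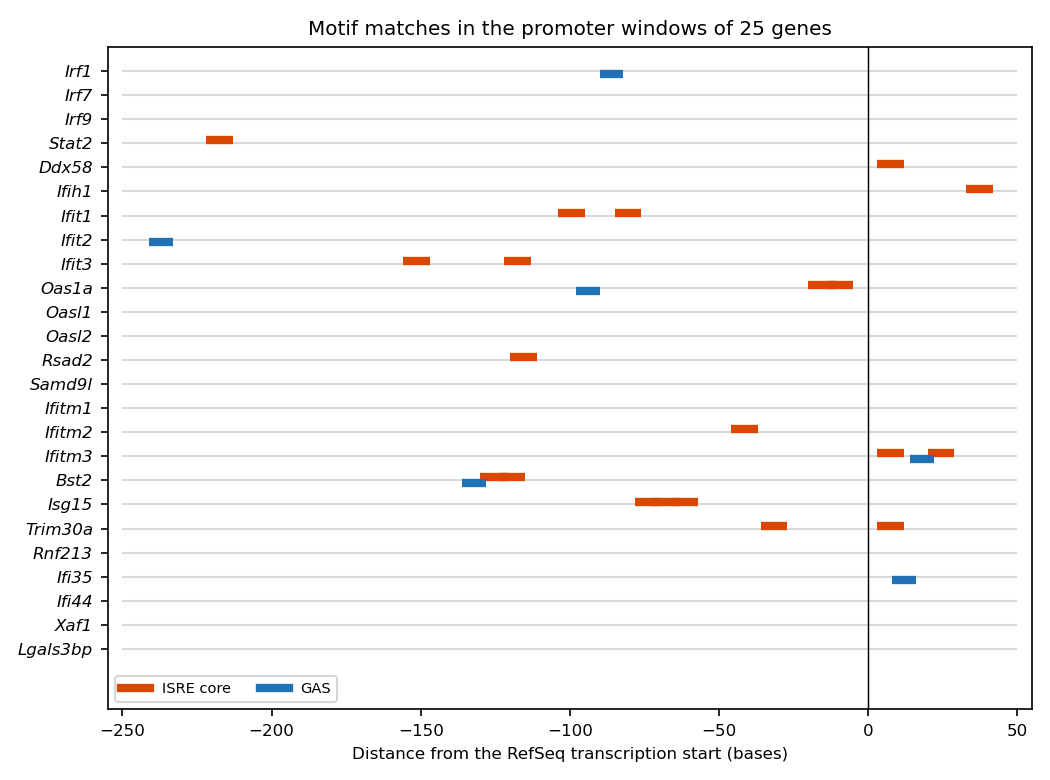
Positions of motif matches in the promoter windows of 25 genes. The x axis is the distance in bases from the RefSeq start, each grey line is 1 gene, and coloured bars are matches to the ISRE core (orange) or the GAS (blue). All ISRE matches of Isg15, Ifit1, Ifit3, Oas1a and Bst2 lie before the start, and those of Ifitm3 lie after it, the second overlapping a GAS match. The 2 matches of Trim30a come from windows of 2 different starts.

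Several of the genes are neighbours in the genome (GENCODE M21, GRCm38). Ifit2, Ifit3 and Ifit1 lie on chromosome 19 between 34550694 and 34650009 on the plus strand. Ifitm2, Ifitm1 and Ifitm3 lie on chromosome 7 between 140954837 and 141010770, Oasl2 and Oasl1 on chromosome 5 between 114896936 and 114937915, and Ifi27 and Ifi27l2a on chromosome 12 between 103434211 and 103443680. Neighbours did not share 1 pattern: Ifitm2 was called in none of the 4 comparisons and Ifitm3 in all 4. The annotated span of 12 of the 33 genes overlaps another gene, and whether the counting used strand is not given in the sources used here.

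All 33 genes were highest in the 12-month bleomycin library. Their summed level was 462 CPM in 3-month PBS, 650 CPM in 12-month PBS, 781 CPM in 3-month bleomycin and 3497 CPM in 12-month bleomycin, so the first 3 libraries lay within a 1.69-fold range and the fourth stood apart. In PBS libraries much of this sum came from few genes: Ifi27, Ifitm2 and Ifi27l2a held 68.4% of the UMIs of the group in 3-month PBS and 67.6% in 12-month PBS. At 20 CPM or more were 4, 5, 7 and 18 of the 33 genes. Ifit2, Oasl1 and Mx1 had no UMI in either PBS library, and Trim30a none in 3-month PBS, while all 33 had UMIs in both bleomycin libraries.

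**Figure D2:**
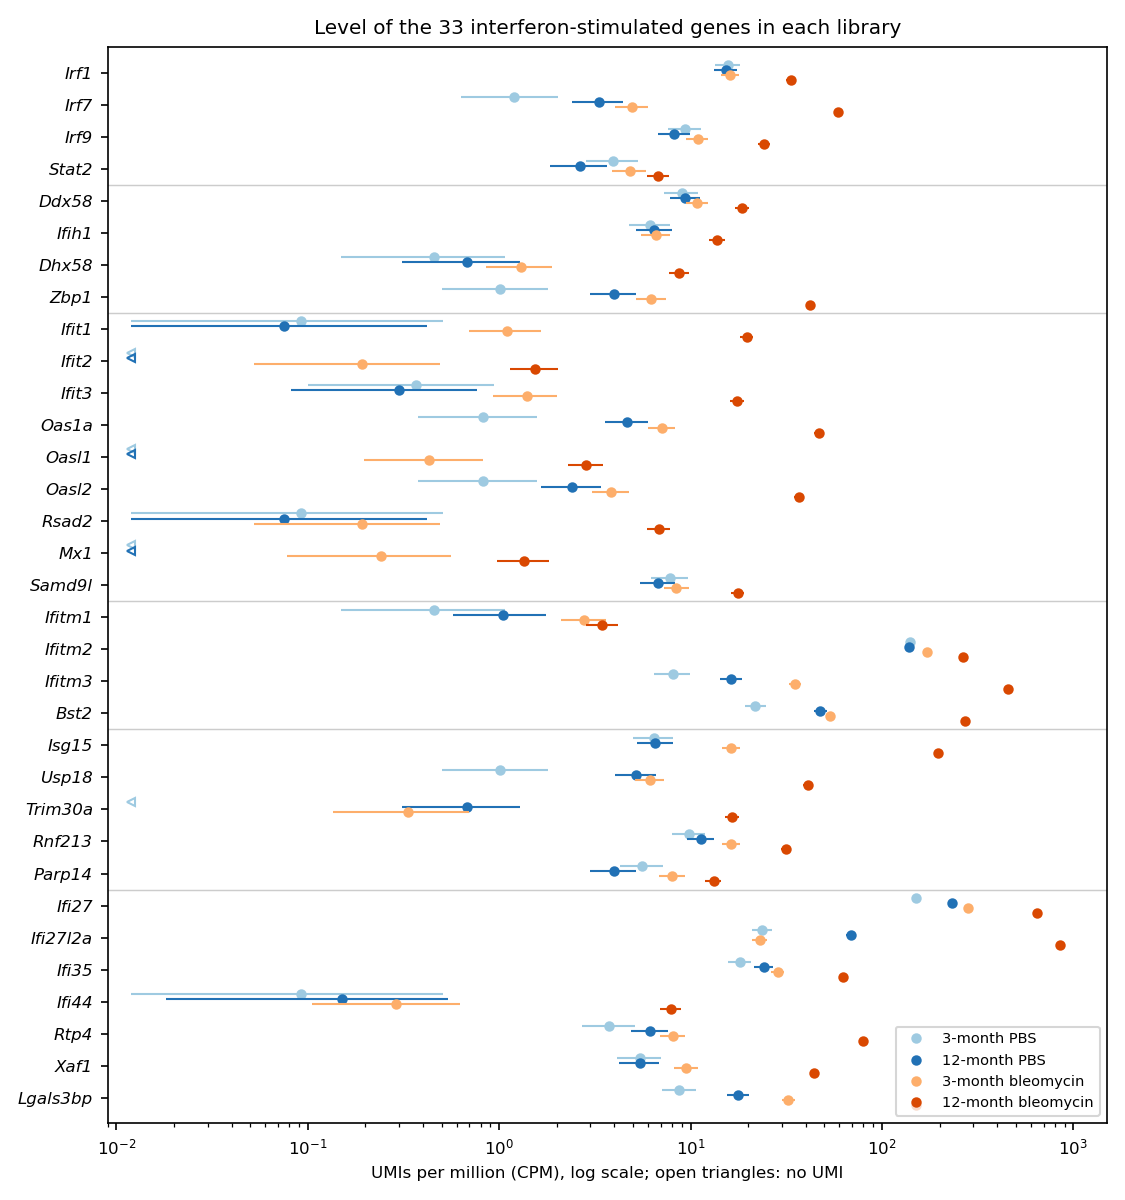
Level of each of the 33 genes in each library. The x axis is CPM on a log scale, points are the 4 libraries, lines are exact 95% Poisson intervals of the count, open triangles mark genes with no UMI, and grey lines part the functional groups. The 12-month bleomycin point is the rightmost in every row.

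Between bleomycin and PBS at 12 months, 31 of the 33 genes were called higher and none lower. Of all 14209 genes with 10 or more UMIs, 11.9% were called higher and 5.29% lower. Among the 31, Ifit2, Mx1, Rsad2, Oasl1 and Ifi44 reached 10 UMIs only through the 12-month bleomycin library. For the 33 genes the median log2 ratio was 3.31, against 0.13 for all genes, and the ratio of the summed levels was 5.38. With Ifit2, Oasl1 and Mx1, which had no PBS UMI, set at their lower bounds (3 counts in the PBS library), the median was 3.02 and the count remained 31. The other 2 genes, Ddx58 and Ifitm2, had log2 ratios of 0.98 and 0.94, just under 2-fold, with intervals above 1. At 3 months 15 genes were called higher and none lower (all genes 6.69% higher and 4.21% lower). The median of their log2 ratios was 1.30, against 0.04 for all genes, and the summed levels differed 1.69-fold. This median fell to 0.80, and the count to 14, with Ifit2, Oasl1, Mx1 and Trim30a at their lower bounds.

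Age was compared within each treatment. Among PBS libraries 10 of 33 genes were higher at 12 months and none lower (all genes 2.31% higher and 2.62% lower). The median of their log2 ratios was 0.21, and it was 0.43 over the 30 genes with a UMI in at least 1 of the 2 libraries, Trim30a at its lower bound, against -0.10 for all genes. Among bleomycin libraries 27 were higher at 12 months and none lower (all genes 5.75% higher and 2.07% lower), and the median of the log2 ratios was 2.66, against -0.01. Ifit2, Mx1, Rsad2, Oasl1 and Ifi44, counted among the 27, reached 10 UMIs only through the 12-month bleomycin library. The 4 comparisons share libraries, and each library enters 2 of them.

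The difference between the ages was also taken gene by gene, as the log2 ratio of bleomycin to PBS at 12 months minus that at 3 months. It was above 0 with an interval that left out 0 for 25 of the 33 genes and below 0 for none, against 19.6% and 11% of all genes. Rsad2 and Ifi44, counted among the 25, reached 10 UMIs only through the 12-month bleomycin library. The median of the difference was 1.35, against 0.08 for all genes. For Zbp1, Oas1a, Usp18, Ifitm1, Trim30a, Ifit2, Oasl1 and Mx1 the interval held 0. Ifitm1 alone had a negative value, -0.81, with an interval from -2.29 to 0.68, and Rsad2 had the highest, 5.27, from 1.74 to 8.80. These are Wald intervals on counts plus 0.5, an approximation for genes with few UMIs, such as Rsad2 with 1 UMI in each PBS library.

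**Figure D3:**
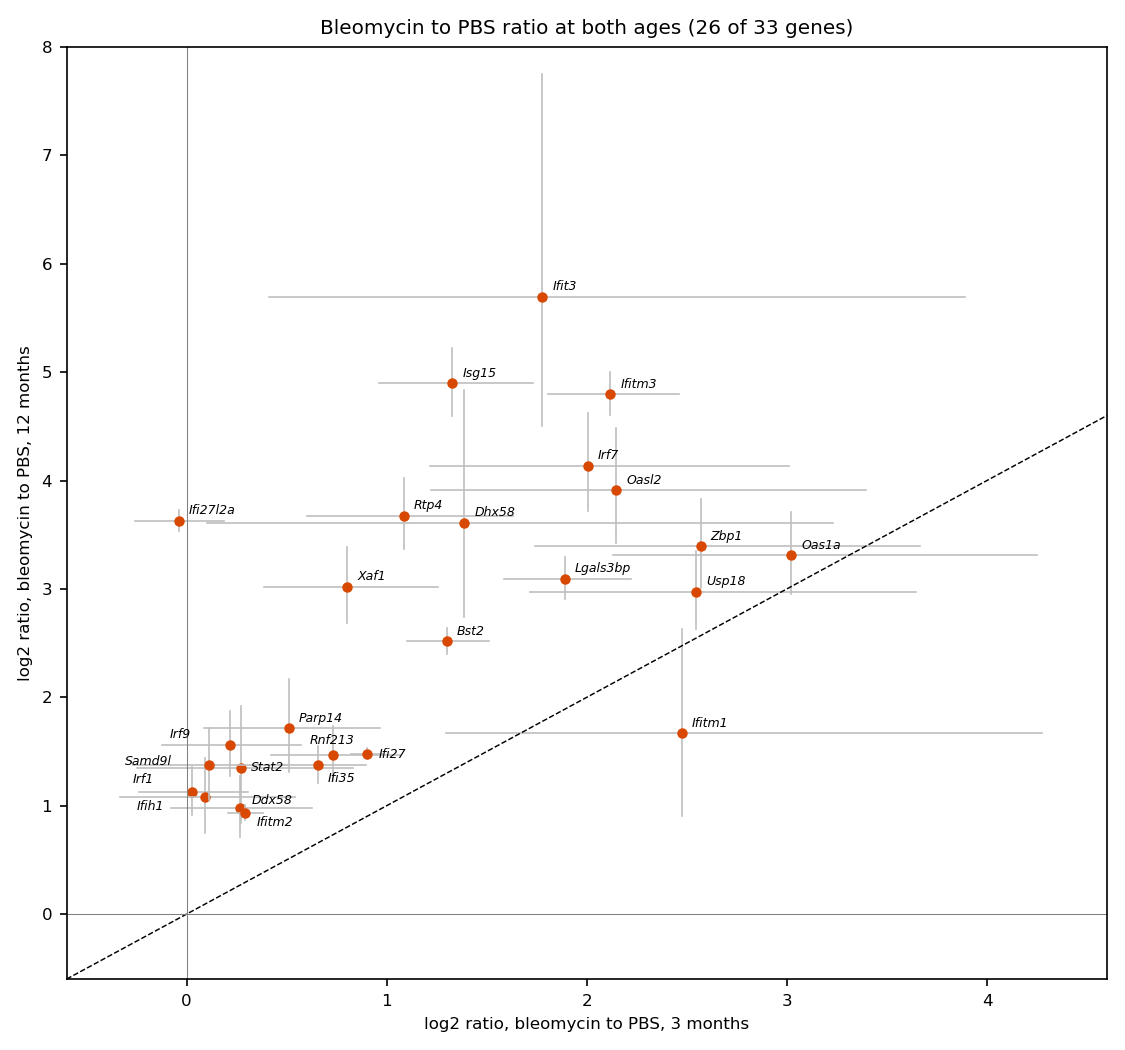
Bleomycin to PBS log2 ratio at 3 months (x axis) and at 12 months (y axis) for the 26 genes with more than 3 UMIs in both PBS libraries. Points are genes, grey lines are 95% intervals for counting error, and the dashed line marks equal ratios. All genes drawn but Ifitm1 lie above the dashed line, and Ifi27l2a combines a ratio near 0 at 3 months with one of 3.63 at 12 months.

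All 4 transcription factors were called higher after bleomycin at 12 months and 1, Irf7, at 3 months. Irf7, the factor that amplifies type I interferon production, was at 1.19, 3.31, 4.94 and 58.9 CPM, from 13, 44, 103 and 1877 UMIs. The 12-month bleomycin library was thus 17.8-fold above its PBS control (interval 13.2 to 24.6) and 11.9-fold above the 3-month bleomycin library (9.77 to 14.7), with no overlap of the intervals of the levels. Irf1, a factor induced by interferon gamma, had 15.7, 15.3, 16.03 and 33.5 CPM: 3 libraries with overlapping intervals and the fourth 2.19-fold above its control (1.88 to 2.56). Irf9, the DNA-binding partner of STAT2, showed the same order, with 9.36, 8.20, 10.9 and 24.3 CPM and a ratio of 2.97 at 12 months (2.42 to 3.66). Stat2, which forms a complex with IRF9, had 3.95, 2.63, 4.80 and 6.78 CPM. Of the 4 comparisons it was called in that of bleomycin with PBS at 12 months, by 2.58-fold (1.80 to 3.79).

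Of the 4 nucleic acid sensors 3 were called higher after bleomycin at 12 months and 2 (Zbp1 and Dhx58) at 3 months. Zbp1, which senses left-handed nucleic acids and can start cell death, had 1.01, 3.99, 6.24 and 42.3 CPM. It was called in all 4 comparisons, with ratios of 6.18 for bleomycin at 3 months (3.34 to 12.7) and 10.6 at 12 months (8.05 to 14.2). Dhx58, the regulatory helicase LGP2, had 5, 9, 27 and 278 UMIs, the last at 8.73 CPM and 12.9-fold above its PBS control (6.69 to 28.5). Ddx58 and Ifih1, the RNA helicases RIG-I and MDA5, were similar in the first 3 libraries, at 8.99, 9.41 and 10.8 CPM for Ddx58 and 6.15, 6.47 and 6.58 CPM for Ifih1. In 12-month bleomycin they reached 18.7 and 13.8 CPM, ratios of 1.98 (1.63 to 2.42) and 2.12 (1.68 to 2.71) to PBS, so the second passed 2-fold and the first did not.

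The 9 genes whose products act on RNA or in antiviral complexes were all called higher after bleomycin at 12 months, and 5 at 3 months. All 9 were also called higher at 12 months between the bleomycin libraries. Of all genes 11.9%, 6.69% and 5.75% were called higher in these comparisons. Ifit2, Mx1, Rsad2 and Oasl1 reached 10 UMIs only through the 12-month bleomycin library, so the filter itself favoured calls for these. Oas1a, a synthetase that activates RNase L, was at 0.826, 4.67, 7.06 and 46.7 CPM. Its 3-month ratio of 8.54 (4.38 to 19.1) and its 12-month ratio of 10.0 (7.76 to 13.1) had overlapping intervals, and the 12-month PBS library was itself 5.65-fold above 3-month PBS (2.79 to 12.9). Oasl2, a relative of the synthetases, had 0.826, 2.41, 3.84 and 36.8 CPM and a 12-month ratio of 15.3 (10.8 to 22.4). Oas1g, a near-copy of Oas1a outside the 33 genes, had 3, 25, 46 and 489 UMIs, and how reads were split between the 2 genes is uncertain.

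The IFIT proteins bind foreign RNA ends. Ifit1 had 1, 1, 23 and 627 UMIs, the last 2 at 1.10 and 19.7 CPM. Its ratio at 12 months was 262, but with 1 UMI in PBS the interval ran from 46.8 to 10350.1; between the bleomycin libraries, where counts are larger, it was 17.8 (11.8 to 28.3). Ifit3 had 4, 4, 29 and 559 UMIs and a 12-month ratio of 58.3 (22.6 to 214.8). Its near-copy Ifit3b had 1, 6, 14 and 204 UMIs, so the split between the 2 is uncertain. Ifit2 had 0, 0, 4 and 49 UMIs, at least 6.82-fold higher in 12-month bleomycin than in its control. Such bounds set a library without a UMI at 3 counts and take the other count as it is; the lower limit of the exact interval was 5.34. In each of the 3 genes, both PBS libraries held 4 UMIs or fewer and 3-month bleomycin lay between them and 12-month bleomycin.

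Rsad2, which encodes viperin, had 1, 1, 4 and 217 UMIs, and the 12-month bleomycin library was 35.5-fold above the 3-month one (13.7 to 131.4). Mx1, a GTPase that blocks influenza viruses, had 0, 0, 5 and 43 UMIs, at least 5.98-fold higher at 12 months after bleomycin than after PBS (interval from 4.66). Oasl1 had 0, 0, 9 and 91 UMIs, at least 12.7-fold higher by the same measure (interval from 10.1) and at least 1.57-fold higher at 3 months (interval from 1.03). Samd9l, a translation-blocking antiviral protein, behaved differently: its 7.80, 6.77 and 8.45 CPM in the first 3 libraries had overlapping intervals, and 12-month bleomycin had 17.6 CPM, 2.60-fold above PBS (2.08 to 3.29).

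The 3 IFITM proteins, which hinder virus entry at membranes, each had a pattern of its own, and 2 of them, with Bst2, were called higher after bleomycin at either age. In 3-month bleomycin the kept cells had 2.98% (2.20 to 3.99) of the Ifitm1 level and 5.70% of the Ifitm3 level of the cells left out for low Sftpc, beside 3.62% (1.59 to 7.51) for the T cell gene Cd3d, and the part of RNA from other cells in these levels was not tested. Ifitm3 had 8.08, 16.3, 35.2 and 455 CPM, from 88, 217, 734 and 14491 UMIs, and each library lay above the one before without overlap of the intervals. Bleomycin exceeded PBS 4.36-fold at 3 months (3.49 to 5.51) and 27.9-fold at 12 months (24.4 to 32.0). Ifitm2 was already at 141, 138 and 172 CPM in the first 3 libraries and reached 264 CPM, 1.91-fold above PBS (1.82 to 2.01). Ifitm1 had few UMIs, 5, 14, 58 and 110 UMIs. Its 2.78 CPM after bleomycin at 3 months and 3.45 CPM at 12 months had overlapping intervals (ratio 1.24, 0.895 to 1.74). Bst2, or tetherin, which holds budding viruses at the cell surface, had 21.8, 47.6, 53.9 and 273 CPM, and was called in all 4 comparisons, by 2.47-fold at 3 months (2.14 to 2.85) and 5.72-fold at 12 months (5.28 to 6.21).

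The 5 genes of ISG15, ubiquitin and ADP-ribose transfer were all called higher after bleomycin at 12 months, and Isg15 and Usp18 also at 3 months. Isg15, the ubiquitin-like modifier, had 6.42, 6.55, 16.2 and 196 CPM, from 70, 87, 338 and 6246 UMIs. The PBS libraries had overlapping intervals (ratio 1.02, 0.735 to 1.42), bleomycin exceeded PBS 2.53-fold at 3 months (1.95 to 3.32) and 29.96-fold at 12 months (24.3 to 37.5), and the 2 bleomycin libraries differed 12.1-fold (10.8 to 13.5). Usp18, the protease that removes ISG15 and dampens the type I receptor, had 1.01, 5.19, 6.14 and 41.0 CPM. Unlike Isg15 it already differed between the PBS libraries, 5.14-fold (2.70 to 10.8), and its ratios to PBS of 6.09 at 3 months (3.29 to 12.5) and 7.90 at 12 months (6.20 to 10.2) overlapped.

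Trim30a, a tripartite-motif protein, had 0, 9, 7 and 524 UMIs, so that 12-month bleomycin was 49.0-fold above 3-month bleomycin (23.6 to 122.4) and 24.3-fold above PBS (12.7 to 53.4). Rnf213, a large ubiquitin ligase, was at 9.82, 11.4, 16.4 and 31.6 CPM, with a ratio of 2.78 at 12 months (2.34 to 3.32). Parp14, an ADP-ribosyltransferase, was at 5.60, 3.99, 8.02 and 13.2 CPM, with 3.31 (2.48 to 4.49). For Rnf213 and Parp14 the 2 bleomycin libraries differed by less than 2-fold.

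The 7 remaining genes were all called higher after bleomycin at 12 months, and 2 of them, Rtp4 and Lgals3bp, at 3 months. Ifi44 reached 10 UMIs only through the 12-month bleomycin library. Ifi27l2a, a member of the Ifi27 family of small membrane proteins, showed the highest ratio between the bleomycin libraries among the genes at 20 CPM or more in any library, 36.9-fold (33.7 to 40.5). It had 258, 916, 481 and 27157 UMIs, or 23.7, 68.9, 23.1 and 853 CPM. At 3 months bleomycin and PBS had overlapping intervals (ratio 0.975, 0.836 to 1.14), at 12 months the ratio was 12.4 (11.6 to 13.2), and PBS at 12 months was 2.91-fold above PBS at 3 months (2.53 to 3.36). Its neighbour Ifi27 had 152, 232, 283 and 648 CPM, a graded series in which bleomycin exceeded PBS 1.87-fold at 3 months (1.77 to 1.97) and 2.79-fold at 12 months (2.69 to 2.90).

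Lgals3bp, a secreted galectin-binding glycoprotein, had 8.72, 17.7, 32.4 and 151 CPM without overlap between libraries, with ratios of 3.72 at 3 months (3.00 to 4.66) and 8.55 at 12 months (7.496 to 9.78). Rtp4, a chaperone-like membrane protein with antiviral action, had 3.76, 6.17, 8.06 and 79.3 CPM, a 12-month ratio of 12.9 (10.3 to 16.2). Xaf1, a pro-apoptotic protein, was at 5.41, 5.42, 9.50 and 44.2 CPM, so the PBS libraries were close (ratio 1.001, 0.699 to 1.44) and 12-month bleomycin was 8.15-fold above its control (6.43 to 10.5). Ifi35 had 18.1, 24.1, 28.5 and 62.5 CPM and a 12-month ratio of 2.60 (2.31 to 2.93). Ifi44 had 1, 2, 6 and 251 UMIs, 27.4-fold between the bleomycin libraries (12.4 to 75.3).

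The share of cells carrying these genes was compared after each cell was thinned to 3000 UMIs, which left out 356, 242, 55 and 0 shallower cells. The median cell then had a UMI of 1, 1, 2 and 5 of the 33 genes (unthinned 1, 2, 3 and 10), and the 90th percentile was 2, 3, 3 and 9. Cells with none made up 27.3% (25.3 to 29.3), 19.2% (17.7 to 20.9), 13.7% (12.3 to 15.2) and 1.27% (0.861 to 1.79), with exact Clopper-Pearson 95% intervals. Cells with 3 or more of the genes made up 8.81%, 17.5%, 23.0% and 83.3% (unthinned 21.2%, 36.3%, 70.7% and 98.4%), and cells with 5 or more 0.615%, 1.25%, 3.07% and 53.3%. The 12-month bleomycin distribution lay at higher numbers, with its highest point at 5 genes, a tail to 21 and no second peak at higher numbers. At this depth such counts cannot show whether a subset of cells was higher. The part of RNA from other cells in these counts was not tested.

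**Figure D4:**
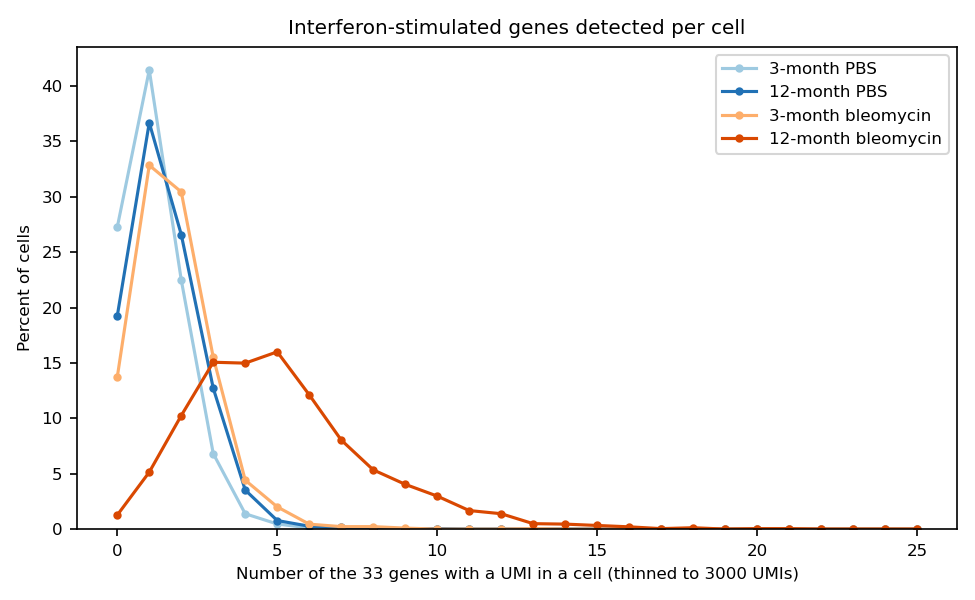
Number of the 33 genes with a UMI in a cell (x axis) against the percent of cells (y axis), after thinning each cell to 3000 UMIs. Lines are the 4 libraries. The highest point lies at 1 gene in the first 3 libraries and at 5 in 12-month bleomycin, where 3 and 4 genes are nearly as common.

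Single genes were carried by very different shares of cells. After thinning, Ifitm3 was detected in 2.05%, 3.61%, 6.60% and 50.2% of cells, Ifi27l2a in 4.87%, 12.3%, 4.59% and 61.6%, and Isg15 in 1.74%, 1.63%, 3.74% and 28.2% (unthinned values were higher, since the bleomycin cells were deeper). Ifi27 was detected in 36.5%, 47.0%, 52.9% and 78.7%. Irf7, Zbp1, Oas1a, Oasl2, Usp18 and Xaf1 each were found in 9.71% to 11.8% of 12-month bleomycin cells and in under 3% of cells elsewhere. Free RNA in droplets can add UMIs to cells that do not make a gene. Jchain, a plasma cell gene that AT2 cells should lack, gives a scale for it: 0%, 0.129%, 2.50% and 22.5% of thinned cells carried a Jchain UMI.

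The cells left out for low Sftpc, where most cells of other types are found, were used to set that scale against the 33 genes. In 12-month bleomycin, at median depths of 12520 and 7439 UMIs, the kept cells had 1.12% of the Jchain level of the left-out cells, 1.97% of that of C1qa and 4.85% of that of Cd3d. For the 33 genes the kept level was 68.3% of the left-out level in sum and had a median of 62.2%, from 6.13% for Ifitm1 to 169% for Ifi27. Isg15 stood at 81.7%, Ifi27l2a at 78.9% and Ifitm3 at 39.5%. Rsad2, Oasl1, Mx1 and Ifit2 were between 15.9% and 21.4%. In 12-month PBS the sum was at 33.2%, and Ifitm3 and Ifitm1 at 2.98% and 3.83%, where Cd3d was at 1.42%. In 3-month bleomycin the sum was at 35.8%; Ifitm1 (2.98%), Ifit2 (4.34%, from 4 UMIs in kept cells), Trim30a (4.91%, from 7) and Ifitm3 (5.70%) had low values, beside Jchain (1.08%), C1qa (1.81%), C1qb (2.16%) and Cd3d (3.62%), while Zbp1 was at 59.7% and Isg15 at 65.0%.

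Immune markers moved with the groups, also within the kept cells. Markers at 1 CPM or less in 3-month PBS cells summed to 0.275, 8.80, 12.2 and 54.8 CPM for macrophages (9 genes), 0, 4.51, 2.45 and 19.5 CPM for T or NK cells (8 genes) and 1.01, 1.20, 10.1 and 108 CPM for B cells (5 genes, mostly Jchain in the bleomycin libraries, with 8.93 and 100.4 CPM). No T or NK marker had a UMI in 3-month PBS, while all 8 had one in 12-month bleomycin. The 4 neutrophil markers summed to 12.9, 15.95, 7.97 and 112 CPM; S100a8, S100a9 and Retnlg, which make up nearly all of it, were above 1 CPM in 3-month PBS and are not among the markers removed next. No UMI of any of 23 markers at 1 CPM or less in 3-month PBS was found in 2294, 2490, 1908 and 481 kept cells. In these cells 31 of the 33 genes were called higher at 12 months, with a median log2 ratio of 3.21 (9.18% of all genes). At 3 months 13 were called higher, with a median of 1.25 (6.1% of all genes). The part of RNA from other cells in the levels of the 33 genes was not tested.

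The levels were also taken in the cells left out for low Sftpc, not all of which fell into the marker classes below or were given a cell type. Left-out cells had summed levels of 1161, 1958, 2182 and 5120 CPM. Among them, cells with 3 or more UMIs of the ciliated cell genes Foxj1, Ccdc153 and Tmem212 (7, 26, 47 and 41 cells) had 1440, 1532, 2543 and 7196 CPM. T cells by Cd3 genes had 1068, 1530 and 4910 CPM in the last 3 libraries (12, 17 and 117 cells), and cells with C1q genes 1613 and 5060 CPM in the bleomycin libraries (14 and 120 cells). Cells with endothelial UMIs (10, 19, 28 and 21) were high in every library, at 8067, 6740, 6035 and 8114 CPM, led by Ifitm3 with 47.9% of these UMIs in 3-month PBS and 32.2% in 12-month bleomycin. The 12-month bleomycin level was the highest in each class, and among endothelial cells its interval (7716 to 8528 CPM) overlapped that of 3-month PBS (6786 to 9519 CPM). These Poisson intervals leave out the spread between the cells of a class, and several classes hold few cells.

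**Figure D5:**
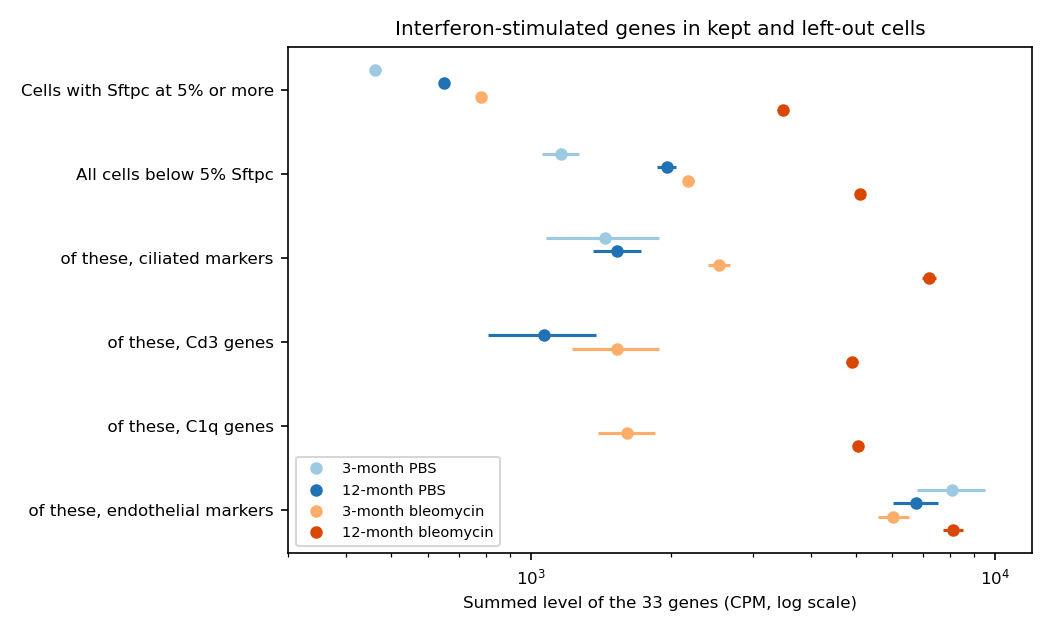
Summed level of the 33 genes (x axis, CPM on a log scale) in the kept cells and in classes of left-out cells. Points are libraries and lines 95% Poisson intervals; classes under 5 cells are not drawn. The 12-month bleomycin point is the rightmost in each class, and among cells with endothelial markers its interval overlaps that of 3-month PBS.

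Within the kept cells, the summed level was set against the state of the cell. In 12-month bleomycin, cells with Sftpc at 5 to 10%, 10 to 20% and 20% or more of UMIs had 3355, 3501 and 3585 CPM. Cells with a UMI of Cldn4, a gene of the transitional state between AT2 and AT1 cells, had 3495 CPM (141 cells) and those without 3498 CPM. Cells with a UMI of the proliferation genes Mki67, Top2a or Ube2c had 3680 CPM (3620 to 3739, 249 cells) against 3471 (3449 to 3493). These Poisson intervals leave out the spread between cells. Over all kept 12-month bleomycin cells, unthinned, the variance of the summed UMIs was 38.6 times their mean. Whether the states differ was not tested. In 3-month bleomycin the same contrasts gave 952 against 773 CPM for Cldn4 (85 cells with it) and 893 against 776 CPM for proliferation genes (63 cells). Cells with a UMI of a rare gene were deeper, with medians of 13610 against 12447 UMIs for Cldn4 in 12-month bleomycin.

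Co-detection was described as the number of thinned cells with both genes of a pair over the number expected if they were independent, for pairs expected in 5 or more cells. The median was 0.993 in 3-month PBS (36 pairs), 1.12 in 12-month PBS (65 pairs) and 1.10 in 3-month bleomycin (86 pairs). In 12-month bleomycin it was 1.33 (362 pairs, of which 331 were above 1 and 123 above 1.5). With the planned limit of 1 or more expected cells the medians were 1.06, 1.13, 1.21 and 1.37 (114, 158, 234 and 469 pairs). The libraries differ in which pairs reach either limit, so the medians do not compare the same pairs. Among pairs expected in 5 or more cells, the 3 highest of 12-month bleomycin were Ifit1 with Usp18 (37 cells, 10.5 expected), Ifit3 with Usp18 (32 cells, 9.15 expected) and Irf7 with Ifit3 (36 cells, 10.6 expected). At the limit of 1 they were Ifit1 with Ifit3 (26 cells, 3.78 expected), Ifit3 with Rsad2 (8 cells, 1.18 expected) and Ifit1 with Rsad2 (9 cells, 1.35 expected). By gene, the median over its pairs expected in 5 or more cells was highest for Ifit1 (2.15), Ifit3 (1.98), Oasl2 (1.82) and Usp18 (1.70). It was near 1 for Ifi27 (1.03) and Ifitm2 (1.06), and 0.79 for Ifitm1. The summed UMIs of the 33 genes had a variance of 1.24, 1.67, 1.97 and 7.17 times their mean over thinned cells, and the variance beyond that of counting, over the squared mean, was 0.171, 0.350, 0.423 and 0.617. All pairs share libraries and depth, and no test was made.

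The rest of the pathway was followed in lists chosen for their role, also with earlier results of these data known. Of 9 receptor and kinase genes, 1 (Ifngr2) was called higher at 12 months after bleomycin, near the 11.9% of all genes, and none in the other comparisons. Ifnar2, a chain of the type I receptor, had 34.9, 41.8, 57.9 and 57.7 CPM, and Il10rb, shared by the type III receptor, 51.3, 47.5, 66.1 and 66.3 CPM, so the 2 bleomycin libraries were close in both. Jak1 had 36.7, 31.5, 32.3 and 30.8 CPM and Ifngr1 30.7, 33.6, 37.5 and 30.9 CPM. Among 13 STAT, IRF and feedback genes, 2 were called higher at 3 months, 5 at 12 months, 0 between PBS libraries and 4 between bleomycin libraries, where all genes had 6.69%, 11.9%, 2.31% and 5.75%. Stat3 lay between 79.4 and 89.96 CPM in all 4 libraries, and Socs3, a feedback inhibitor, had 27.5, 35.4, 62.1 and 73.1 CPM, 2.26-fold and 2.07-fold above PBS at the 2 ages.

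Of 11 nucleic acid sensing genes 3, 4, 0 and 1 were called higher in the comparisons of bleomycin with PBS at 3 and 12 months and of the ages in PBS and in bleomycin. With 6.69%, 11.9%, 2.31% and 5.75% of all genes called higher in these comparisons, the last 2 counts are near the background. Tmem173, which encodes STING, had 3.85, 5.72, 15.7 and 21.9 CPM, 4.07-fold above PBS at 3 months (2.95 to 5.76) and 3.83-fold at 12 months (3.02 to 4.92). Of 35 other interferon-stimulated genes outside the 33, 8, 27, 6 and 23 were higher. Psmb8, an immunoproteasome subunit, was at 77.1, 193, 173 and 466 CPM, and Tap1, a peptide transporter for antigen presentation, at 6.24, 16.03, 17.6 and 69.7 CPM. Of 17 genes induced mainly by interferon gamma 6, 16, 4 and 15 were higher. Iigp1, an immunity-related GTPase, had 0, 7, 17 and 2001 UMIs, 77.0-fold between the bleomycin libraries (48.0 to 132.4), and Igtp, another, had 23, 46, 111 and 1777 UMIs. No gene of these lists was called lower in any of the 4 comparisons, and a few genes, such as Cxcl10 and Socs1, stand on 2 lists.

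Interferon transcripts themselves were rare. Ifng, the gene of interferon gamma, had 0, 0, 0 and 18 UMIs in the kept cells and 0, 10, 0 and 70 in the left-out cells; 66 of the 70 were in cells with 3 or more UMIs of Cd3 genes. Ifnb1, the gene of interferon beta, had UMIs only in 12-month bleomycin, 8 in 4 kept cells and 28 in 15 left-out cells, 15 of them UMIs of cells with Cd3 genes. Ifna2 had 1 and 6 UMIs in the kept and left-out cells of that library, and Ifnk 2, 2, 9 and 6 UMIs in kept cells. Ifna1, Ifna4, Ifnl2 and Ifnl3 had none in any cell used, which at this depth allows up to 0.275, 0.226, 0.144 and 0.0942 CPM in the kept cells.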

How the data were processed

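UMI counts per gene and cell barcode were deposited by the authors, 1 matrix for each of the 4 libraries; Cell Ranger, without a version, Seurat 3.2.2 and the build mm10 are named, per the submitters' processing notes. The files hold whole-number counts with no normalization found.

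The 33 genes and all other lists were chosen with earlier results of these data known. Counts were summed over kept cells (500 or more genes, at most 20% mitochondrial UMIs, Sftpc at 5% or more) and scaled to the library total, 10896642, 13289829, 20832613 and 31849343 UMIs, as CPM (Python 3.11.15, numpy 2.4.6, scipy 1.17.1, pandas 2.3.3; matplotlib 3.10.9). Before log2 ratios were taken, 0.5 counts were added; intervals are exact conditional binomial (ratios), exact Poisson (levels), Clopper-Pearson (shares) and Wald (difference between ages). Genes with 10 or more UMIs over the libraries were used. All 33 genes passed, but Ifit2, Mx1, Rsad2, Oasl1 and Ifi44 did so only through the UMIs of 12-month bleomycin, where they were highest. These genes are included in the counts of genes called and in the medians. For bounds, a library without a UMI of a gene was given 3 counts. Thinning to 3000 UMIs was seeded. Doublets were called with Scrublet in scanpy 1.11.5 at 0.8% per 1000 barcodes, 48, 63, 56 and 72 barcodes, and kept in the main values. The intervals were tested on simulated counts. All 33 genes are named, with full values for those at 20 CPM or more in any library, and up to 4 genes of each pathway list with the highest levels; further genes of the lists were named after their values were seen. Alternatives covered scaling, filters on cells and genes, the Sftpc share, immune markers, doublets, weighting, depth and the fold. Promoters came from RefSeq and gene positions from GENCODE M21. Intervals cover counting error only. A gene of the pathway lists is counted in them but its own values are not reported here.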

Additional observations from a re-analysis of the deposited data

Results flagged for a closer look

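Ifi27l2a had bleomycin to PBS log2 ratios of opposite sign at the 2 ages, -0.04 at 3 months (interval -0.26 to 0.19) and 3.63 at 12 months, a difference of 3.67 (interval 3.43 to 3.90 for counting error). The difference between the ages was not tested, since each group is 1 library. The value at 3 months cannot be told from 0 by counting error.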

How the results depend on the processing

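No paired analysis was possible because each group is 1 library. Under the 16 alternatives no single-gene ratio changed direction where it was called. The count of genes called higher stayed within 1.5 times its reported value in 60 of 64 cases. The median log2 ratio stayed within the counting interval of the middle gene of the 33 in 57 of 64. That gene was Bst2 at 3 months (1.10 to 1.51) and Oas1a at 12 months (2.96 to 3.71). It was Rnf213 between PBS libraries (-0.16 to 0.58) and Oasl1 between bleomycin libraries (1.74 to 3.90, a wide interval). No interval of the median itself was made. Of the 16 alternatives, the 1.5-fold limit and the lack of a minimum on genes could not move these medians. The lack of a minimum could not move the counts either, so those agreements were fixed in advance. Keeping only genes with a mean of 20 CPM or more left 10 of the 33 genes. Of these, 5 were called higher at 3 months, 9 at 12 months, 4 between PBS libraries and 9 between bleomycin libraries. The shares of all genes called higher under this setting were 2.5%, 5.11%, 0.925% and 1.27%. All 10 genes had a greater bleomycin to PBS ratio at 12 months. Their medians were 0.99 at 3 months, 2.80 at 12 months and 0.66 between PBS libraries. With a mean of 5 CPM or more (23 genes) the 3-month median was 0.90. It was 1.02 with Sftpc at 10% or more of UMIs and 1.04 after thinning to 2000 UMIs. With no Sftpc minimum the median between PBS libraries was 0.61; the cause was not tested. Thinned to 2000 UMIs, 3.25%, 8.13%, 11.3% and 69.7% of cells carried 3 or more of the genes, fewer by construction, and 78.4% of the 481 cells of 12-month bleomycin without immune marker UMIs did so, an alternative chosen after seeing the data. The planned list of 30 immune markers includes Lyz1 and others that AT2 cells make; it left 5, 24, 10 and 6 cells and gave no value. Median-of-ratios scaling moved the median of all genes by 0.10 between the PBS libraries (log2) and turned 328 higher and 372 lower genes into 408 and 302; for the 33 genes it left 10 called higher and none lower. Depth limits the genes with few UMIs: 7 of the 33 had 3 or fewer in 3-month PBS and 6 in 12-month PBS.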
